A study of Mus musculus with 5 samples.

Results

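Plasma cell and immunoglobulin genes were followed in macrophages sorted from Matrigel plugs that had held myeloma cells, to measure the trace of myeloma RNA in each sample. The 9 genes were Pou2af1, Tnfrsf17, Tnfrsf13b, Jchain, Sdc1, Xbp1, Prdm1, Igha and Iglv1. Every probe set whose platform annotation names one of them was taken, which gave 20 of 45037 probe sets on the array. One of the 20 carries the symbols of a pair of genes, Iglc1 and Iglv1, and is marked as such below. The annotation rule used no measured value, but the 9 genes were chosen with earlier results of these data known. In 19 of the 20, at least 1 array was above the floor used here, a scaled signal of 4.79, below which values have no order. The remaining probe set, 1427292_at of Iglv1, was under the floor on all arrays, with its highest signal being 0.876, and was not tested.

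The study compared CD11b+ cells, called macrophages in the labels, sorted on a FACSAria from subcutaneous plugs of 2 kinds on day 8. The tumoricidal samples (3 arrays) came from idiotype-specific TCR-transgenic SCID mice (which hardly make B or T cells of their own) on the Balb/c background whose plugs contained MOPC315, a mouse myeloma line. The control samples (2 arrays), which the labels call non-tumoricidal, came from TCR-transgenic SCID Balb/c mice whose plugs contained an antigen-loss variant of MOPC315. All mice were 7 to 12 weeks old, so both groups share the SCID defect, the transgenic receptor and the presence of a myeloma. The labels name biological replicates but do not say how many plugs or mice went into each, and they do not say which part of the antibody the variant lost. No array of the myeloma cells alone was part of the data, so a share of myeloma RNA could not be computed. In bulk samples, fewer cells of a type and less RNA per cell cannot be told apart.

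Plasma cells are B-lineage cells that secrete antibody in bulk. Prdm1 encodes Blimp-1, the repressor that ends the B-cell programme, and Xbp1 encodes the factor that expands the secretory pathway. Pou2af1 encodes OCA-B, a coactivator that binds Oct factors on octamer elements of immunoglobulin promoters. Tnfrsf17 (BCMA) and Tnfrsf13b (TACI) are receptors for the survival ligands BAFF and APRIL, and Sdc1 encodes syndecan-1 (CD138), the usual surface marker of plasma cells. Igha encodes the constant part of the IgA heavy chain, Jchain the chain that joins IgA into polymers, and Iglv1 a variable segment of the lambda light chain. MOPC315 makes an IgA antibody with a lambda light chain, and the transgenic T cells recognise a piece of that light chain. Neither Xbp1 nor Prdm1 is restricted to plasma cells, and macrophages use both.

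The promoters of Pou2af1, Jchain and Tnfrsf17 are shown because these were the genes with a single probe set on which all tumoricidal arrays lay below both control arrays. RefSeq promoter sequences (build GRCm38.p6, from 250 bases before to 50 bases after the start) were found for 7 of the 9 genes, all but Igha and Iglv1. Capitals mark a match to TGACGTGG, the core of the element read by Xbp1 and Atf6, and only the 250 bases before the start are printed, 5′ to 3′ on the gene's strand. Pou2af1 lies at chr9:51213440-51213689 (plus strand), Jchain at chr5:88527898-88528147 (minus strand) and Tnfrsf17 at chr16:11313559-11313808 (plus strand).
Pou2af1: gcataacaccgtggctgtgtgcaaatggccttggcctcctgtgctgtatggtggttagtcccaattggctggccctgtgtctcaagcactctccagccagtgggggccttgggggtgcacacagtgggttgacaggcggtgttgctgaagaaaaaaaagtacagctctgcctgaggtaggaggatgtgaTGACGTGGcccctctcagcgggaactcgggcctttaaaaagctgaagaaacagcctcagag
Jchain: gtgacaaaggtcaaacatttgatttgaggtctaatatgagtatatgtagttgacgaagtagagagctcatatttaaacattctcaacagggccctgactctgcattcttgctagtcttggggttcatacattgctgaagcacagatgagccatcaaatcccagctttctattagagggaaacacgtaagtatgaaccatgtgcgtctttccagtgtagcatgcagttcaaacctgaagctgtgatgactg
Tnfrsf17: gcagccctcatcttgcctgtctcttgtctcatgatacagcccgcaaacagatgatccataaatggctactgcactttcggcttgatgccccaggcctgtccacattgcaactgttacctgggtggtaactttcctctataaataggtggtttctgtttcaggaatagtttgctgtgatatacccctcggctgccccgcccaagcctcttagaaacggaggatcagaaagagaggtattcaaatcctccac

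On both strands of the whole 300-base windows, TGACGTGG or its reverse complement CCACGTCA was present in 1 of the 7 promoters, that of Pou2af1, where it begins 61 bases before the start. It was present in 0.676% of the 32851 promoters in the table. The octamer ATGCAAAT or its reverse complement ATTTGCAT was in 0 of the 7 and in 1.74% of all promoters. A match is a description of the letters and not a site of binding.

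Values of single arrays are listed throughout in the order of the replicate numbers. The samples carried macrophage RNA. Of 8 listed macrophage markers, 7 were measured, and their summed signals were between 20780 and 31457 in tumoricidal samples and between 20097 and 25886 in control samples. Csf1r, the receptor of macrophage colony-stimulating factor, had 6685, 5913 and 6808 in the tumoricidal arrays, against 5186 and 5290 in the control arrays. Deposited array medians were between 15.4 and 22.6 and were scaled to a common value before the comparison. Spike-in control probe sets set the arrays apart: BioC averaged 683 and 609 in tumoricidal replicates 1 and 2, 166 in tumoricidal replicate 3, 616 in control replicate 1 and 173 in control replicate 2. Values are therefore also given within the higher side (tumoricidal replicates 1 and 2, control replicate 1) and the lower side (tumoricidal replicate 3, control replicate 2). Tumoricidal replicate 2 stood apart in other lists. Its T-cell marker sum was 1001, against 134 and 95.1 in the other tumoricidal samples, and its keratinocyte and fibroblast marker sum was 1043, against 2506 and 3028.

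Of the 41053 probe sets tested with limma, 0.0341% were higher and 0.0171% lower in tumoricidal samples at an adjusted p under 0.05. Of the 19 member probe sets, 0 passed in either direction with limma, while at an unadjusted p under 0.05 there were 4 lower and 1 higher. Among the 4 was Tnfrsf17, whose tumoricidal arrays were all under the floor and so had no measured spread. Among all probe sets, 3.07% were lower and 4.92% higher at that unadjusted threshold. The groups did not overlap in 6 member probe sets that were lower and in 5 that were higher in tumoricidal samples. The same was true of 7.6% (lower) and 13.3% (higher) of all probe sets. The median log2 difference, tumoricidal minus control, was -0.39 over the 19 and 0.09 over all probe sets.

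Pou2af1, the coactivator, had signals of 50.5, 45.3 and 69.5 in the tumoricidal arrays, against 483 and 544 in the control arrays. The groups were far apart and each was tight, with means of 55.1 ± 12.7 (SD, n = 3) in tumoricidal and 514 ± 43.4 (SD, n = 2) in control samples. The log2 difference of -3.24 (SE 0.28) was the 9th lowest (0.0219% of the 41053 were at or below it) and stood just outside the threshold (limma adjusted p = 0.0528). It was -3.34 within the higher spike-in side and -2.97 within the lower, and -3.18 with that split as a block (limma adjusted p = 0.145). It passed the threshold under 5 alternatives, among them the deposited scaling (-3.47, limma adjusted p = 0.0372).

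Tnfrsf17, the receptor BCMA, had signals of 1.22, 0.578 and 0.935 in tumoricidal samples, all under the floor, and 24.2 and 37.2 in control samples. It was at least 6.26-fold lower in tumoricidal samples, since their value is a bound (limma adjusted p = 0.0674). All 3 tumoricidal arrays were set to the same floor value, so that p takes no spread from them. The related receptor TACI, encoded by Tnfrsf13b, showed another picture. Its signals were 441, 303 and 424 in tumoricidal samples and 230 and 354 in control samples, which overlap. Its difference of 0.43 (log2, SE 0.32, adjusted p = 0.812 with limma) was within the spread between replicates. Mouse macrophages are known to carry TACI.

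Prdm1 (Blimp-1) had 145, 144 and 267 in tumoricidal samples and 99.2 and 127 in control samples. All tumoricidal arrays were above both control arrays, by 0.66 on the log2 scale (SE 0.37, limma adjusted p = 0.771). Without tumoricidal replicate 3, the highest, the difference was 0.36.

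**Figure D1:**
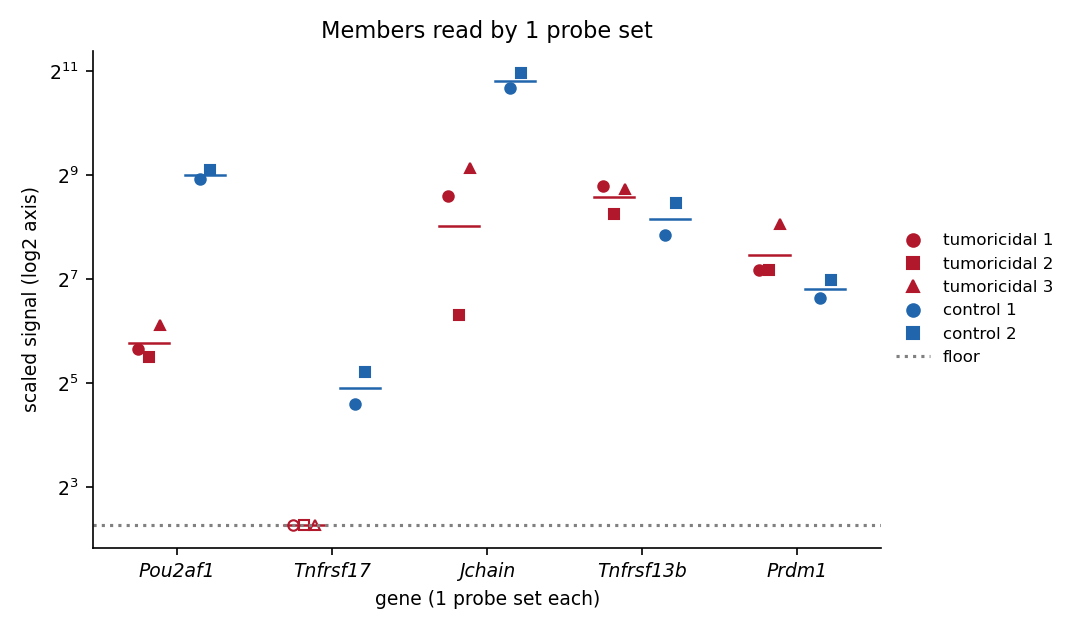
Scaled signal (log2 axis) of the members with 1 probe set, by gene. Each point is an array (red, 3 tumoricidal; blue, 2 control), horizontal bars are means of log2 values, and open points, drawn at the dotted line, lie under the floor of 4.79. Pou2af1, Tnfrsf17 and Jchain are lower in all tumoricidal arrays, Tnfrsf13b overlaps, and Prdm1 is higher in all tumoricidal arrays.

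The antibody chains showed different patterns. Jchain had signals of 387, 78.7 and 561 in the tumoricidal arrays, against 1623 and 1985 in the control arrays. Every tumoricidal array was below both control arrays, with tumoricidal replicate 2 lowest, and the log2 difference was -2.80 (SE 0.85, limma adjusted p = 0.480). Without tumoricidal replicate 2 it was -1.95, and without tumoricidal replicate 3 it was -3.36.

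Igha, the heavy chain, overlapped between the groups on each of its 3 probe sets. Probe set 1421653_a_at had 824, 196 and 1278 in the tumoricidal arrays, against 810 and 601 in the control arrays. Probe set 1425763_x_at had 777, 197 and 1194 in tumoricidal and 682 and 568 in control samples, and 1429381_x_at had 551, 117 and 881 in tumoricidal and 531 and 477 in control samples. All 3 probe sets gave the same order of tumoricidal arrays, with replicate 3 highest and replicate 2 lowest, and the control arrays lay between. Their log2 differences were -0.24, -0.13 and -0.39 with SEs between 0.77 and 0.85 (limma adjusted p between 0.918 and 0.971). Without tumoricidal replicate 2 they were 0.56, 0.63 and 0.47, so the sign rests on that array. Within the higher spike-in side they were -1.01, -0.80 and -1.06, and within the lower side 1.09, 1.07 and 0.88.

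The lambda light chain was read by probe sets that pointed in opposite directions. In the Affymetrix naming scheme, the endings _s_at and _x_at mark probe sets whose probes can also match other transcripts, so each of the 3 detected sets may read several lambda genes. Probe set 1424931_s_at, which is annotated to both Iglc1 and Iglv1, had signals of 106, 74.4 and 988 in the tumoricidal arrays, against 3111 and 4012 in the control arrays. All tumoricidal arrays were below both control arrays, and the difference of -4.16 (log2, SE 1.12, adjusted p = 0.408 with limma) was the 4th lowest of all 41053. Probe set 1430523_s_at had 412, 284 and 2253 in tumoricidal and 2373 and 3731 in control samples. Again the groups did not overlap, but tumoricidal replicate 3 came close to control replicate 1, and the log2 difference was -2.21 (SE 0.91, limma adjusted p = 0.639). Within the spike-in sides the 2 probe sets gave -5.13 and -2.79 on the higher side and -2.02 and -0.73 on the lower.

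Probe set 1447918_x_at, annotated to Iglv1 alone, was the reverse. Its signals were 226, 122 and 1142 in the tumoricidal arrays, against 10.2 and 1.40 in the control arrays. Both control arrays were close to or under the floor, while every tumoricidal array was far above them. The log2 difference of 5.50 (SE 0.97) was the 5th highest of all 41053, and limma's adjusted p was 0.214. It was 4.03 within the higher spike-in side and 7.90 within the lower, where the control value is a bound, and it ran from 4.57 to 6.18 with single arrays left out. The sequences of its probes were not used here, so which lambda transcript it reads is not known from these data. On the RefSeq reference (GRCm38.p6), the lambda genes run in the order Iglc1, Iglc3, Iglv1, Iglc2 and Iglv2 on chromosome 16, leaving out joining segments, pseudogenes and Iglv3.

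Within tumoricidal samples the 3 detected lambda probe sets ranked the arrays alike, with replicate 3 highest and replicate 2 lowest, as Igha did. That order is not particular to these genes. The summed signal of all probe sets tested was 7.90e+06, 7.06e+06 and 8.68e+06 in tumoricidal arrays, and that of the macrophage markers 28350, 20780 and 31457. The log2 ratio of 1447918_x_at to 1430523_s_at varied by 0.35 over the 3 tumoricidal arrays and by 1.74 over the control arrays, of which 1 is at the floor, and the group means of that ratio differed by 7.71, tumoricidal minus control. The log2 ratio of Jchain to Igha varied by 0.23 over the tumoricidal arrays and by 0.72 over the control arrays, and its group means differed by -2.56. The log2 ratio of Iglv1 (1430523_s_at) to Igha varied by 1.82 over the tumoricidal arrays and by 1.08 over the control arrays. Its group means differed by -1.97, and by -1.78 and -1.82 within the spike-in sides. For the ratios of 1424931_s_at and 1447918_x_at to Igha the group means differed by -3.92 and 5.74, the latter a bound. The sign thus depends on the lambda probe set. For each of these, the exact permutation test over the arrays gave a two-sided p of 0.2, the smallest that 10 splits of 3 against 2 allow. For Pou2af1 the log2 ratio to Igha varied by 2.09 over the tumoricidal arrays and by 0.60 over the control arrays.

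**Figure D2:**
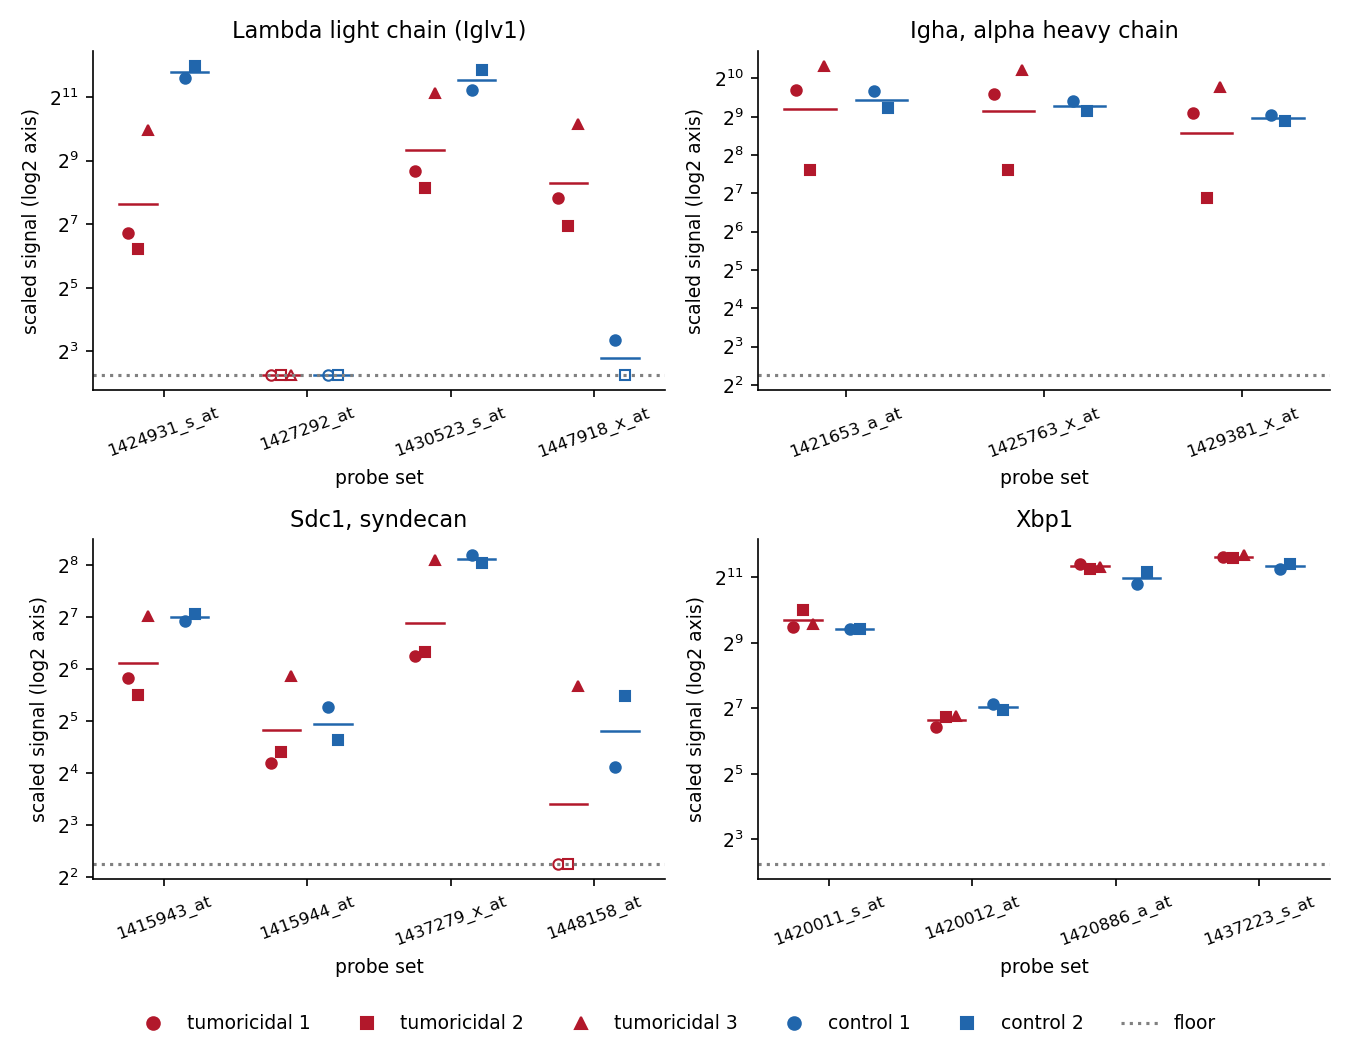
Scaled signal (log2 axis) of every probe set of Iglv1, Igha, Sdc1 and Xbp1, by probe set. Each point is an array (red, 3 tumoricidal; blue, 2 control), bars are means of log2 values, and open points, drawn at the dotted line, lie under the floor. In the lambda panel 1424931_s_at and 1430523_s_at are lower and 1447918_x_at is higher in tumoricidal arrays, whereas the Igha arrays overlap.

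Sdc1 (syndecan-1) was read by 4 probe sets, and in each of them tumoricidal replicate 3 was the highest of the tumoricidal arrays. Probe set 1437279_x_at had 76.9, 80.1 and 276 in the tumoricidal arrays, against 295 and 264 in the control arrays. Probe set 1415943_at had 56.7, 45.7 and 131 in tumoricidal and 122 and 135 in control samples. In both, replicates 1 and 2 of the tumoricidal group lay below the controls and replicate 3 among them. The log2 differences were -1.23 (SE 0.61) and -0.88 (SE 0.49), with limma adjusted p of 0.742 and 0.770. Within the lower spike-in side, which holds tumoricidal replicate 3, they were 0.06 and -0.04. The dimmer sets gave -1.41 (1448158_at, with 2 tumoricidal arrays under the floor) and -0.13 (1415944_at), whose sign changed with single arrays left out. Within the lower spike-in side they were 0.19 and 1.23. Syndecan-1 is also made by epithelial cells and fibroblasts, whose list of 8 markers had summed signals between 1043 and 3028 in tumoricidal and between 1436 and 2576 in control samples. The samples were sorted for CD11b. Col3a1, the brightest of those markers, had 1887, 648 and 2263 in tumoricidal and 1842 and 1010 in control samples. The part of such cells in the Sdc1 values was not tested.

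Xbp1 had similar signals in both groups. Probe set 1437223_s_at had 3132, 3098 and 3297 in tumoricidal and 2456 and 2721 in control samples, and 1420886_a_at had 2743, 2449 and 2565 in tumoricidal and 1794 and 2290 in control samples. These and 1420011_s_at had log2 differences of 0.30, 0.35 and 0.27 (SE 0.23, 0.24 and 0.27; limma adjusted p between 0.804 and 0.853), all of which became slightly negative with quantile normalization (-0.040, -0.034 and -0.029). Probe set 1420012_at had 85.9, 107 and 108 in tumoricidal and 140 and 122 in control samples, and differed by -0.39 (log2, SE 0.25, limma adjusted p = 0.795). The 4 probe sets thus pointed in different directions with median scaling, and all were below 0 with quantile normalization, where 1420012_at gave -0.54.

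**Figure D3:**
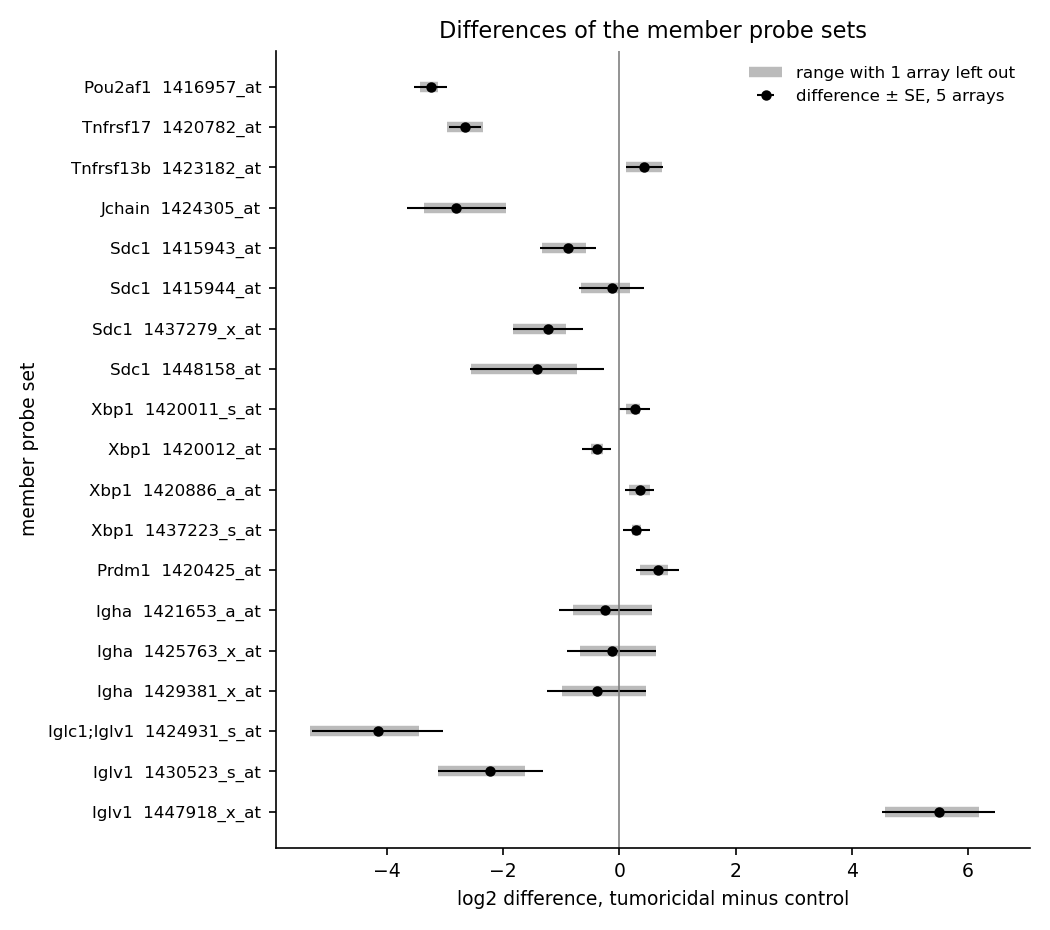
Log2 difference, tumoricidal minus control, of the 19 member probe sets tested (points with SE, from 5 arrays), with grey bars for the range when single arrays are left out. Pou2af1, Tnfrsf17, Jchain and both _s_at lambda probe sets stay below 0 and 1447918_x_at stays above 0, while the bars of Igha and of Sdc1 1415944_at cross 0.

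The other immunoglobulin genes on the array were mostly dim. There were 57 immunoglobulin probe sets including Jchain, of which 8 belong to the members and 49 do not, and 41 of those 49 were tested. With limma 0 of the 41 passed, and the median log2 difference of the 41 was 0.10. At an unadjusted p under 0.05, 2 were lower and 2 higher, against 3.07% lower and 4.92% higher of all probe sets. The brightest belonged to Ighm, the heavy chain of IgM. Its probe set 1427351_s_at had 649, 466 and 545 in tumoricidal and 392 and 614 in control samples, and 1427329_a_at had 417, 312 and 422 in tumoricidal and 173 and 494 in control samples. Both overlapped between the groups, with log2 differences of 0.16 and 0.38. Another Ighm probe set, 1427870_x_at, had between 27.1 and 30.3 in tumoricidal and 33.8 and 37.0 in control samples.

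Kappa light chain probe sets were dim. Of 29 there were 24 tested, and the summed signal of these was between 102 and 195 in tumoricidal and between 120 and 175 in control samples. The probe set 1451965_at, shared by Igkv6-14, Igkv6-23 and Igkv8-19, had 17.2, 29.4 and 19.4 in tumoricidal and 34.0 and 18.7 in control samples. The largest differences were in 1427660_x_at and in Igkv19-93 (1427855_at). The former, shared by Igkc and other kappa genes, had a log2 difference of 1.37 (SE 0.40, with 1 control array under the floor). The latter had -1.36 (SE 0.22), with all 3 tumoricidal arrays under the floor and both control arrays at 12.3. The 2 Ighm sets that the naming rule adds, 1451949_at and 1425324_x_at, had log2 differences of -1.06 and 0.82. None of these passed with limma (adjusted p between 0.177 and 0.778). The lowest, that of Igkv19-93, takes no spread from its tumoricidal arrays.

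**Figure D4:**
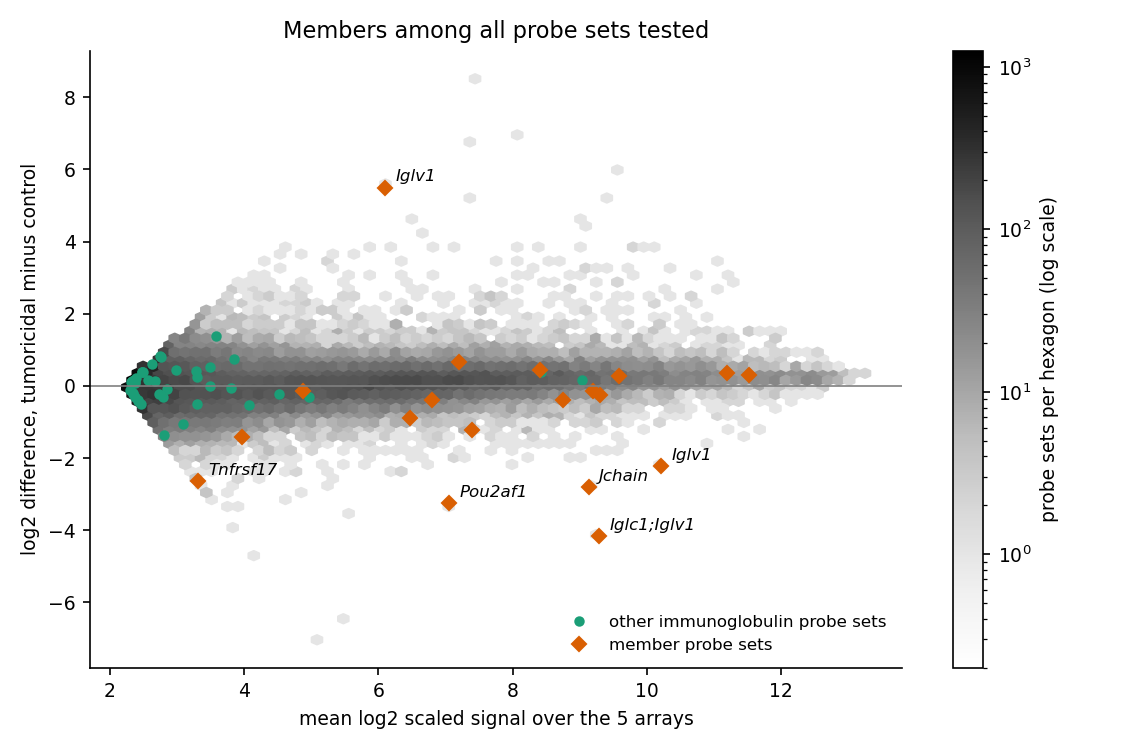
Log2 difference, tumoricidal minus control, against mean log2 signal over the 5 arrays for all 41053 probe sets tested (grey hexagons), with member probe sets as orange diamonds and other immunoglobulin probe sets as green circles. Both _s_at lambda sets, Jchain and Pou2af1 lie at the lower edge and 1447918_x_at at the upper edge, while the other immunoglobulin probe sets lie between -1.36 and 1.37.

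Other genes of plasma cells were described from a list of 12, of which 11 were measured. With limma 0 passed in either direction, and the median log2 difference was -0.09. At an unadjusted p under 0.05, 3 were lower and 0 higher, against 477 lower and 1045 higher of all 17074 named genes. The groups did not overlap in 5 that were lower and 1 that was higher, against 6.51% lower and 17% higher over all 17074 named genes read from 1 probe set each. Eaf2, an elongation factor partner, had 20.03, 11.1 and 17.8 in tumoricidal and 53.6 and 57.8 in control samples (log2 difference -1.82, SE 0.33). Fkbp11, a peptidyl-prolyl isomerase of the secretory pathway, had 35.6, 2.98 and 23.1 in tumoricidal and 57.0 and 69.8 in control samples (-1.997, SE 0.86, with 1 tumoricidal array under the floor). The others that were lower without overlap, picked out after their values were seen, were Mzb1 (-1.60), Txndc5 (-1.41) and Irf4 (-0.51). Irf4 is a transcription factor of plasma cell and macrophage programmes. The one that was higher without overlap was Tent5c (0.54). Of the 11 genes, 5 had positive and 6 negative differences. The largest positive difference was that of Slamf7 (0.90, SE 0.52), whose groups overlapped. Mzb1, a chaperone of B-lineage cells, had 208, 79.7 and 339 in tumoricidal and 560 and 519 in control samples. Its tumoricidal arrays stood in the order seen for Jchain and Igha, which was also that of the summed signal of all probe sets tested.

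Genes of the wider secretory pathway were also read. Of 19 genes of the unfolded protein response and protein export, 0 passed with limma and 0 reached an unadjusted p under 0.05, with a median log2 difference of 0.11. The largest were Pdia4 (0.53, SE 0.50) and Sdf2l1 (0.52, SE 0.57). Of 8 survival factors and their receptors, 7 were measured and 0 passed with limma. At an unadjusted p under 0.05, 1 was lower and 0 higher, against 477 and 1045 of all 17074 named genes. Of the 7, 4 had positive and 3 negative differences, with a median of 0.02. Lowest in p was Cxcr4, the receptor that holds plasma cells in marrow, with 486, 591 and 731 in tumoricidal and 1060 and 1041 in control samples (-0.82, SE 0.27, limma adjusted p = 0.526). Tnfrsf13c, the BAFF receptor, had 21.7, 8.86 and 21.5 in tumoricidal and 35.0 and 25.4 in control samples (-0.90, SE 0.47). Tnfsf13b, which encodes BAFF (0.63, SE 0.30), and Il6st, the shared receptor chain of the IL-6 family (0.64, SE 0.30), were above both controls on all tumoricidal arrays. Cxcr4 and Tnfrsf13c were below both controls on all of them. Over all named genes, 17% were fully apart higher and 6.51% lower.

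Markers of other cells that make some of these transcripts were measured beside them. Of 14 B-cell markers 12 were tested and 0 passed with limma, and their summed signal was between 515 and 746 in tumoricidal and between 722 and 742 in control samples. At an unadjusted p under 0.05, 1 was lower and 0 higher, against 477 lower and 1045 higher of all 17074 named genes. The groups did not overlap in 2 that were lower and 0 that were higher, against 6.51% and 17% of all named genes. Ms4a1 (CD20) had at most 9.05 and Cd79a at most 7.73 on any array, and Pax5 at most 15.98. Others were well above the floor. Cd79b, the partner of Cd79a, had 50.6, 13.1 and 56.2 in tumoricidal and 66.8 and 59.1 in control samples (-0.91), and Cd22 had between 124 and 299 in tumoricidal and 101 and 143 in control samples (0.53). The other large difference was in Bcl6 (-0.73). Of 6 markers of plasmacytoid dendritic cells, 2 were lower and 1 higher at an unadjusted p under 0.05, against 477 and 1045 of all 17074 named genes. With limma 0 of the 6 passed. Among these, Siglech had 3.76, 3.75 and 8.18 in tumoricidal and 18.8 and 17.4 in control samples (-1.66, SE 0.33, with 2 tumoricidal arrays under the floor) and Bst2, which interferons induce, had a log2 difference of 1.14. Tcf4, a lineage factor of these cells, had 212, 247 and 315 in tumoricidal and 465 and 458 in control samples (-0.86, SE 0.27). The summed signal of the 6 was between 855 and 1255 in tumoricidal and between 823 and 956 in control samples. Of 6 T-cell markers tested 0 passed with limma, the largest differences being in Cd3g (2.28) and Cd3e (1.9997), where tumoricidal replicate 2 was highest in both. Without it they were 1.38 and 0.53. Krt14 (0.46) and Epcam (-0.72) led the keratinocyte and fibroblast list, and Fcgr1 (0.51) and Adgre1 (0.50) the macrophage list, with 0 passing in either. The part of these cells in the member values was not tested.

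Likeness between genes was measured as the root mean square difference of log2 values over the 5 arrays after each gene was centred on its mean, so that a small value means a similar profile. Against Pou2af1, over the named genes above the floor on at least 2 arrays, the nearest were Dppa4 (0.22), Trap1a (0.27), Slc25a31 (0.35), Pgam2 (0.38) and Tnfrsf17 (0.38). Dppa4 and Tnfrsf17 had all tumoricidal arrays under the floor and the other 3 had 1 each, so these distances and their order depend on where the floor lies. With the floor at the 10th percentile Tnfrsf17 gave -4.58, while Pou2af1 kept -3.24. Dppa4 is a gene of pluripotent cells and Trap1a encodes a tumour rejection antigen known from mouse tumours. The p of Dppa4 takes no spread from its tumoricidal arrays, which were all set to the floor. Their log2 differences (Dppa4, then Trap1a) were -3.06 and -3.29, and both passed with limma (adjusted p = 0.0481 each). Under the floor were 3 and 1 of the tumoricidal arrays. Those differences are bounds, and with any single array left out 0 of the probe sets passed with limma. Trap1a, Dppa4 and Pkp2 had been seen to be lower in an earlier look at these data, and Pkp2 had -2.44 here (limma adjusted p = 0.292). Together these 3 had a summed signal between 8.28 and 20.4 in tumoricidal and between 136 and 149 in control samples.

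The nearest to Jchain were Spic (0.35), a transcription factor of red pulp macrophages, Dcaf8l (0.38), Smad6 (0.52), an inhibitor of BMP signalling, Fkbp11 (0.54) and Rapgef3 (0.62). Iglv1 (1430523_s_at) stood 15th in that order and Pou2af1 23rd. Igha had other neighbours: Thbs2 (0.14), Plat (0.14), Fermt2 (0.18), Fam189a1 (0.22) and Cpxm1 (0.24). Thbs2 encodes a matrix thrombospondin and Plat the tissue plasminogen activator. Thbs2 had 41.3, 10.2 and 54.0 in tumoricidal and 34.6 and 24.6 in control samples, with its lowest value in tumoricidal replicate 2, as for Igha and for the summed keratinocyte and fibroblast markers. With 5 arrays such neighbours describe these samples only.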

How the data were processed

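CD11b+ cells were sorted from the plugs and total RNA was labelled from 6 µg, per the labels' protocols. The authors deposited linear signal intensity per probe set for 5 arrays. The software behind these values is not named in the labels, but the trimmed mean (2% off either end) was 100.0 on every array. Arrays were rescaled to a common median because medians differed 1.47 times, over the limit of 1.1. The 64 control probe sets were left out, signals were raised to a floor at the pooled 25th percentile (4.79), and log2 was taken. Probe sets that never exceeded the floor (3984) were dropped, which left 41053 for testing. Where arrays of a single group are under the floor, the log2 difference is a bound. Where arrays of both groups are, it is no bound, as for Ighm 1425324_x_at (1 tumoricidal and 2 control arrays).

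Groups were compared with limma 3.58.1 (lmFit, eBayes, two-sided) in R 4.3.3, with Benjamini-Hochberg adjustment over all probe sets. The fit was run on simulated arrays that had no floor and changed only probe sets above the median. That check cannot speak for probe sets with arrays set to the floor. Ratios between genes used an exact permutation test over arrays (scipy 1.17.1). Symbols came from the platform annotation (34945 probe sets with 1 symbol, 932 with several, 9160 with none), checked by Entrez identifier against RefSeq. A gene of a list was read from its named probe set of highest mean. Some listed genes, among them Cd38, Tnfsf13, Cr2 and Lck, had no such probe set tested, and some items are not reported here.

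The rule named all members, up to 4 passing genes of each list or otherwise the 2 with the largest difference, 8 immunoglobulin probe sets by level or difference, and 5 neighbours of Pou2af1, Jchain and Igha. Other genes named were picked after their values were seen. Members and lists were chosen with earlier results of these data known. P-values measure the spread between arrays, whose independence beyond the word biological is not stated. Alternatives were other scalings, floors, filters, a variance trend, blocks and single arrays left out.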

Additional observations from a re-analysis of the deposited data

How the results depend on the processing

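The number of arrays, 3 against 2, and signals near the floor limit precision. Of 264 alternative values of the member probe sets over 14 settings, 248 kept direction and side of the threshold, 6 newly passed it and 10 changed sign. Pou2af1 passed with quantile normalization, the deposited scaling, a pseudocount of 16, a variance trend and only probe sets above the median, and 1447918_x_at with the last of these, a filter that it clears only through its tumoricidal arrays. With quantile normalization Xbp1 gave -0.0285 (1420011_s_at), -0.0340 (1420886_a_at) and -0.0401 (1437223_s_at). Sdc1 1415944_at gave 0.18, 0.08 and 0.18 without tumoricidal replicate 1, tumoricidal replicate 2 and control replicate 1, and ran from -0.66 to 0.18 with single arrays left out. Igha ran from -0.80 to 0.56, from -0.67 to 0.63 and from -0.99 to 0.47, each time lowest without tumoricidal replicate 3 and highest without tumoricidal replicate 2, and 1425763_x_at gave 0.0017 with the spike-in split as a block. Beside these, the sign differed within the lower spike-in side for Sdc1 1415944_at (1.23), 1437279_x_at (0.061) and 1448158_at (0.19) and for Igha (1.09, 1.07 and 0.88). The median difference of all probe sets was 0.09, but -0.11 with the deposited scaling. Probe sets called higher and lower numbered 14 and 7; a floor at the 10th percentile gave 0 and 0, a pseudocount of 16 gave 59 and 12, only probe sets above the median 194 and 28, a variance trend 58 higher, no filter 41 lower, the spike-in split as a block 0 and 0, and every array left out in turn 0 and 0. Of the 48 immunoglobulin probe sets tested, 23 had negative and 25 positive differences, against 17064 negative of all 41053 probe sets. With only probe sets above the median 8 were negative, where fewer were tested. The cause of the other shifts was not tested.

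The replicate number as a block called 0 and 0 probe sets. Deviations of same-numbered arrays from their group means had r = 0.02 for number 1 and -0.24 for number 2. With 2 control arrays their deviations mirror each other, so these values cannot tell whether same-numbered arrays share more than a number. The difference of Iglv1 minus that of Igha was -2.33 with the block, and ran from -2.52 to -1.42 with single arrays left out.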
